A study of Mus musculus with 4 samples.

Results

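The genes described here are 32 genes of the unfolded protein response and of protein folding in the endoplasmic reticulum (ER), out of 18193 genes that the array names with 1 symbol. A gene entered by its symbol in the probe annotation, and all 32 symbols were found, on 74 probe sets. The list of symbols was drawn up with earlier results of these data known, so it was not blind to them. They fall into 15 chaperones and folding factors, 6 genes of ER-associated degradation, 6 genes of the Atf4/Ddit3 arm, 4 genes for the stress sensors and Xbp1, and 1 subunit of the translocon, the channel into the ER.

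The tested tumors were mammary tumors of St6gal1-/- mice carrying the polyoma virus middle T oncogene (PyV-mT), and they were set against PyV-mT tumors of wild-type littermates. All animals were female C57BL/6 mice of 110 days, sampled 14 days after tumor onset, and all carried the oncogene, which drives mammary carcinoma. St6gal1 is the sialyltransferase that caps N-glycans with alpha2-6-linked sialic acid. RNA was measured on 4 Affymetrix whole-genome mouse arrays, 2 per genotype. Each array held 1 pool of 3 tumors from 3 animals, so differences among animals within a pool were not seen. By the design text the arrays form 2 sets, each of 1 null and 1 wild-type pool. The sources used here give neither the promoter of the transgene nor the extent of the St6gal1 deletion, and no sorting of cells is described. The brighter St6gal1 probe set read 2337 and 3642 on the null arrays of sets 1 and 2, against 2330 and 2796 on the wild-type arrays. It showed no loss of signal in the arrays labelled null (log2 ratio 0.19 ± 0.16, limma adjusted p = 0.554). Which part of the transcript it covers is not known here, so genotype is taken from the labels alone.

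Proteins bound for the cell surface or for secretion fold in the ER, where Hspa5 (BiP) and other chaperones hold unfolded chains and protein disulfide isomerases form and rearrange their disulfide bonds. When unfolded protein accumulates, 3 sensors signal to the nucleus: Atf6, a transcription factor released by cleavage, Ern1 (IRE1), which splices the Xbp1 transcript, and Eif2ak3 (PERK), which slows translation and favours that of Atf4. Atf6 and spliced Xbp1 are known to raise chaperones and degradation factors, whereas Atf4 is known to raise Ddit3 (CHOP), Trib3, Chac1, Asns and Ppp1r15a. Secretory epithelium such as that of the mammary gland carries a large ER, and plasma cells are the textbook case of high ER chaperone expression.

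The regulatory sequence that joins many of these genes is the ER stress response element, shown first because members of several roles share it. Its consensus is CCAAT and CCACG with 9 bases between them, where NF-Y is known to bind the first box and Atf6 the other. Promoter windows from RefSeq (build GRCm38.p6, 250 bases before to 50 after the annotated start) were found for 28 of the 32 genes, and the 4 without one were Manf, Hyou1, Atf6 and Derl1. An exact match on either strand lay in 9 of the 28, Hspa5, Hsp90b1, Creld2, Calr, Canx, Pdia6, Dnajc3, Derl3 and Syvn1. Of 27025 genes with a window in all, 37 (0.137%) held one. Hsp90b1 held 2 copies. The matches are written below in the direction of the consensus, with the fixed letters in capitals and the 9 spacer bases in lower case, and the first and last base are counted from the start of the gene (-1 is the base before it).
Hspa5, -65 to -47: CCAATcggaggcctCCACG
Hsp90b1, -212 to -194: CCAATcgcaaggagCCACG
Hsp90b1, -107 to -89: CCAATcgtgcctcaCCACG
Creld2, -126 to -108: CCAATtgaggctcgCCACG
Calr, -162 to -144: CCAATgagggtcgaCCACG
Canx, -145 to -127: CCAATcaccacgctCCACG
Pdia6, -98 to -80: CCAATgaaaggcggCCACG
Dnajc3, -105 to -87: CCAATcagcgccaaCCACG
Derl3, -156 to -138: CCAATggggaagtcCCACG
Syvn1, -44 to -26: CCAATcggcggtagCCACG

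A shorter form, ATTGG and CCACG with 1 base between them, was found in Herpud1 and Dnajb11, against 12 (0.0444%) of all genes with a window. The form with an ACGT core, TGACGTGG, was in 0 of the 28 members and in 193 genes (0.714%) of all. A composite element known to bind Atf4 with a partner, searched as TGATGNAA, was in Chac1, Trib3, Asns and Herpud1 and in 1219 genes (4.51%) of all. The searches covered both strands, and no matches overlapped in a member's window. The shorter forms and the Atf4 elements are written in the same way.
Herpud1, second form, -52 to -42: ATTGGgCCACG
Dnajb11, second form, 8 to 18: ATTGGcCCACG
Chac1, Atf4 element, -193 to -186: TGATGcAA
Trib3, Atf4 element, 15 to 22: TGATGtAA
Asns, Atf4 element, -23 to -16: TGATGaAA
Herpud1, Atf4 element, -112 to -105: TGATGcAA

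The 250 bases before the start are printed for 4 chaperone genes whose signal was higher in the null tumors and whose windows hold the first form, with the whole matched element in capitals, on the strand of the gene.
Hspa5, chr2:34771840-34772089, plus strand: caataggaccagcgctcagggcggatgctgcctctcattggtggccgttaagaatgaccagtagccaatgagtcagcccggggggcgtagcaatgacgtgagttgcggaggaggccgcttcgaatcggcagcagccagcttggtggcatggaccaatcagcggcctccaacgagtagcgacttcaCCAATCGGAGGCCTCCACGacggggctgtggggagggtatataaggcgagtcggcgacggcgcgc
Pdia6, chr12:17266339-17266588, plus strand: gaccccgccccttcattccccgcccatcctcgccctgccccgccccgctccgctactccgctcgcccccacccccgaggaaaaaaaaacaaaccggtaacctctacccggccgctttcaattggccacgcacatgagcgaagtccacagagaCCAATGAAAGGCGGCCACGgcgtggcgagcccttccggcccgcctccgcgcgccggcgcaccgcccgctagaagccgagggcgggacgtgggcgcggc
Creld2, chr15:88819396-88819645, plus strand: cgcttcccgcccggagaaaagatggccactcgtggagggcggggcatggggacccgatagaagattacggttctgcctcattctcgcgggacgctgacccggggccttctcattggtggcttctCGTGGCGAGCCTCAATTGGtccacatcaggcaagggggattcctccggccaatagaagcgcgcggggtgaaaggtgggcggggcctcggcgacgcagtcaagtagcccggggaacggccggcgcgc
Hsp90b1, chr10:86705445-86705694, minus strand: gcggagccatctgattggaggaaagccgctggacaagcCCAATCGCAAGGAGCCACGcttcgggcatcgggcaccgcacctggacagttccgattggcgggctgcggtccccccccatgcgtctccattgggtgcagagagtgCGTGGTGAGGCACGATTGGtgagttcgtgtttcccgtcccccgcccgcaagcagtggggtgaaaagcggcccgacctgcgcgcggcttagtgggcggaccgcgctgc
A match describes letters in a window and not a bound site, and a window without a match says only that these letters are not in it.

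**Figure D1:**
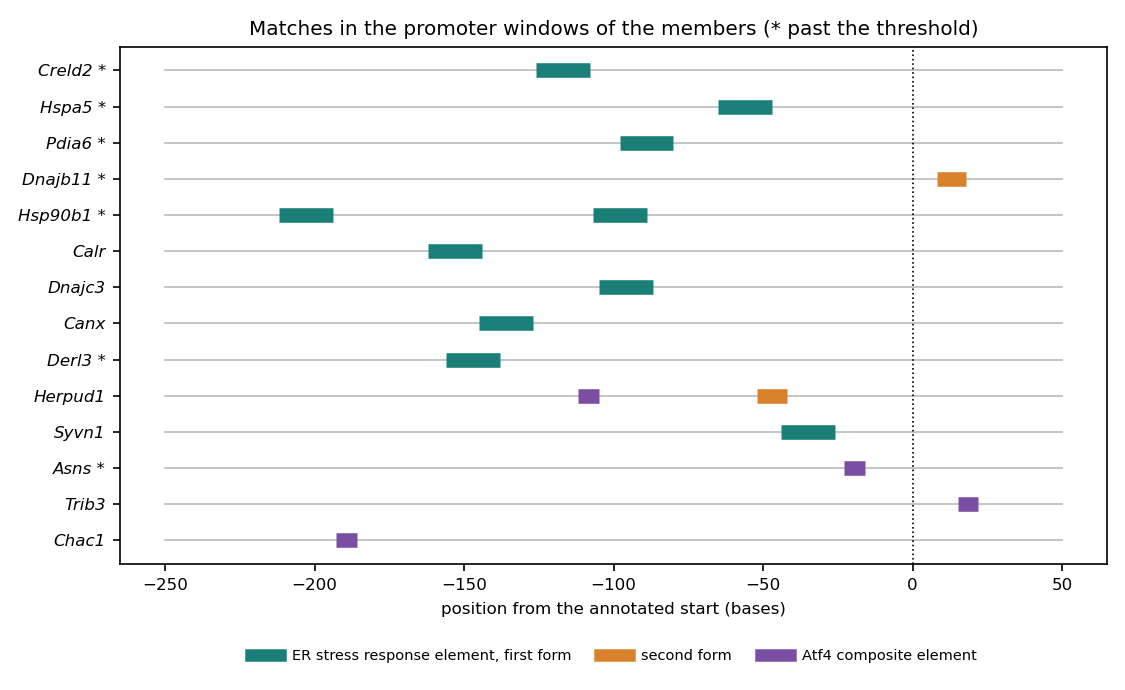
Position of each match in the promoter windows of the 14 members that hold one. The x axis is the distance in bases from the annotated start (dotted line), bars are matches to scale, coloured by element, and an asterisk marks genes past adjusted p 0.05. The first form lies before the start in all 9 genes that hold it, between -212 and -26.

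Values are MAS5 probe set intensities, a linear measure of brightness, and a gene is represented by its brightest probe set among those tested. The fit was limma on log2(intensity + 44) with genotype and set as terms over 22519 probe sets, with Benjamini-Hochberg adjustment over all of them and a threshold of 0.05. All 32 genes had at least 1 tested probe set, and 63 of their 74 probe sets were tested. Errors are standard errors of the fit (2 pools per genotype), and intervals are its 95% intervals, unadjusted. The 13 Y-linked probe sets, which these female animals cannot express, read at most 565, taken here as the unspecific level. Gapdh 3'/5' signal ratios, a measure of RNA quality, were 0.873 (null) and 0.869 (wild type) in set 1, against 2.13 (null) and 1.57 (wild type) in set 2. Those of Actb were 1.53 (null) and 1.63 (wild type) in set 1, against 2.12 (null) and 1.96 (wild type) in set 2.

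In the null tumors 8 of 15 ER chaperones and folding factors rose, by 1.25-fold to 1.54-fold, while Xbp1 and the genes of the Atf4/Ddit3 arm other than Asns did not pass the test. Of the 32 genes 11 rose and 0 fell. Over all 11514 genes tested limma called 5.18% higher and 3.59% lower. At an unadjusted p under 0.05, 16 of the 32 were higher and 1, Ppp1r15a, was lower. By that measure 1362 of all 11514 genes tested were higher and 1309 lower. By class, 8 of 15 chaperones and folding factors rose, 2 of 6 degradation genes, 1 of 6 genes of the Atf4/Ddit3 arm, 0 of 4 sensors with Xbp1, and 0 of 1 for the translocon (11, 2, 1, 1 and 1 higher at an unadjusted p under 0.05). The median log2 ratio of null over wild type was 0.32 for the chaperones, 0.12 for the degradation genes, 0.14 for the sensors with Xbp1 and -0.07 for the Atf4/Ddit3 arm, beside -0.01 for all genes tested. The calls rest on the fit: without the set term, or without the intensity trend of the prior variance, limma called 0 members and 0 probe sets of the whole table. At an unadjusted p under 0.05 these 2 fits had 10 and 16 member probe sets higher, and 1280 and 3486 probe sets in all. With both terms, 7.3% of all probe sets tested were called in either direction.

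**Figure D2:**
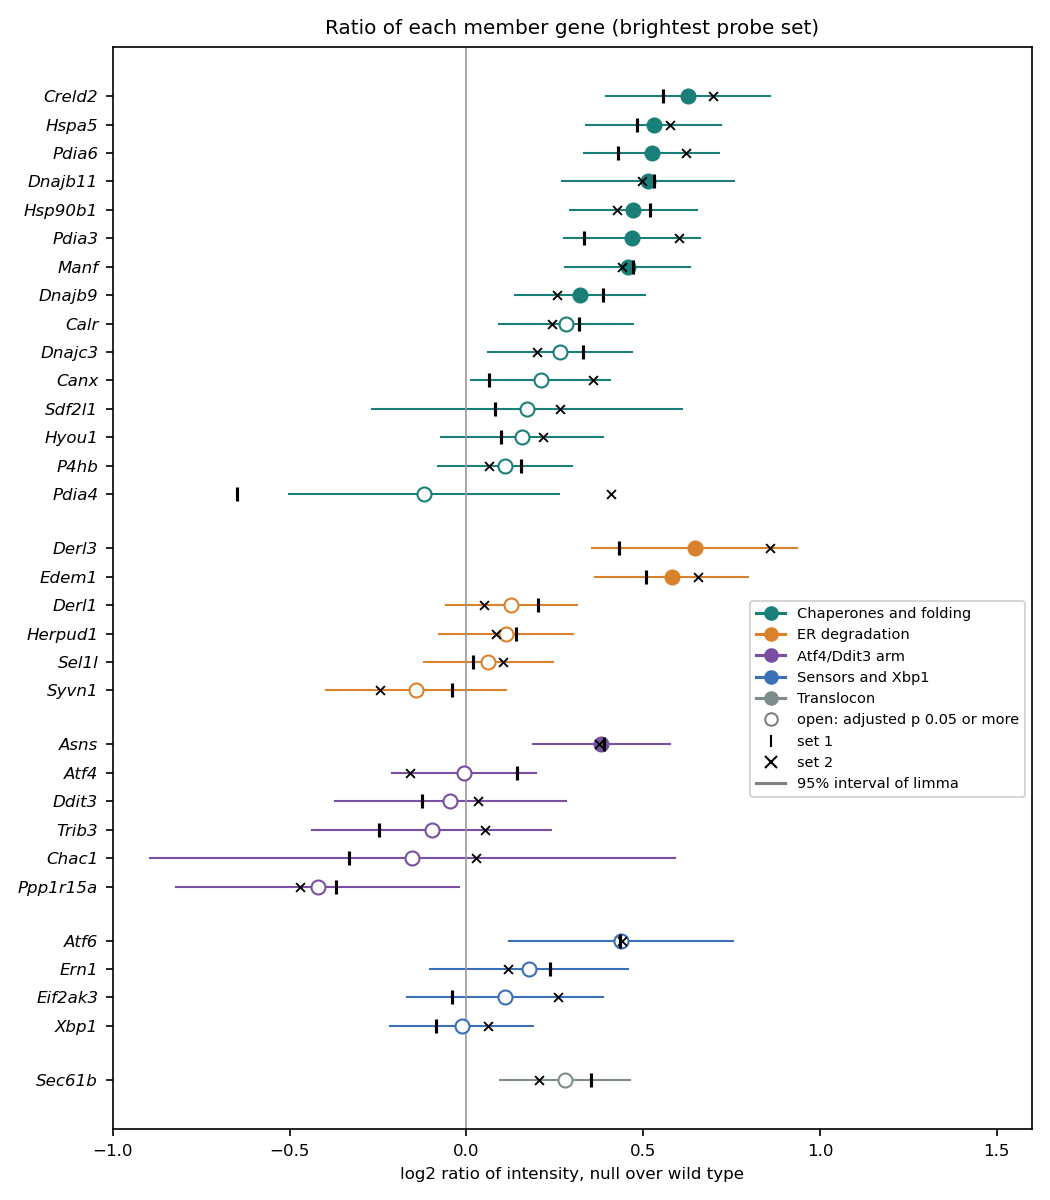
Log2 ratio of intensity, null over wild type, for the brightest probe set of each of the 32 genes, grouped by role. Circles are the estimate of limma (filled where adjusted p is under 0.05), lines its 95% interval, vertical ticks the ratio of set 1 and crosses that of set 2. Filled circles lie among the chaperones (8), the degradation genes (2) and the Atf4/Ddit3 arm (1, Asns).

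Hspa5, the central ER chaperone of the Hsp70 family, read 93415 and 127162 on the null arrays of sets 1 and 2, against 66805 and 85308 on the wild-type arrays. Both null pools were above both wild-type pools, and the ratio was 1.40-fold in set 1 and 1.49-fold in set 2 (log2 0.53 ± 0.09, limma adjusted p = 0.00175). With the null array of set 2 left out, which also drops the set term, its log2 ratio was 0.31. Hsp90b1 (GRP94), the Hsp90 of the ER, read 56680 and 47889 on the null arrays, against 39521 and 35650 on the wild-type arrays. It rose 1.39-fold (log2 0.47 ± 0.08, adjusted p = 0.00269), again with no overlap between genotypes. Creld2, a stress-induced ER protein, had the highest fold of the class: 6957 and 7823 in null against 4716 and 4811 in wild type, or 1.54-fold (log2 0.63 ± 0.11, adjusted p = 0.00218). Manf, a small secreted factor of the ER stress response, was nearly even across sets. It read 29356 and 28834 in null tumors, against 21153 and 21223 in wild-type tumors, which is 1.39-fold and 1.36-fold (log2 0.46 ± 0.08, adjusted p = 0.00314). Both null arrays lay above both wild-type arrays for 11 of the 32 genes, of which 7 are chaperones, and for 17.7% of all genes tested. Both lay below for 1 member, Ppp1r15a, and for 17% of all genes.

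**Figure D3:**
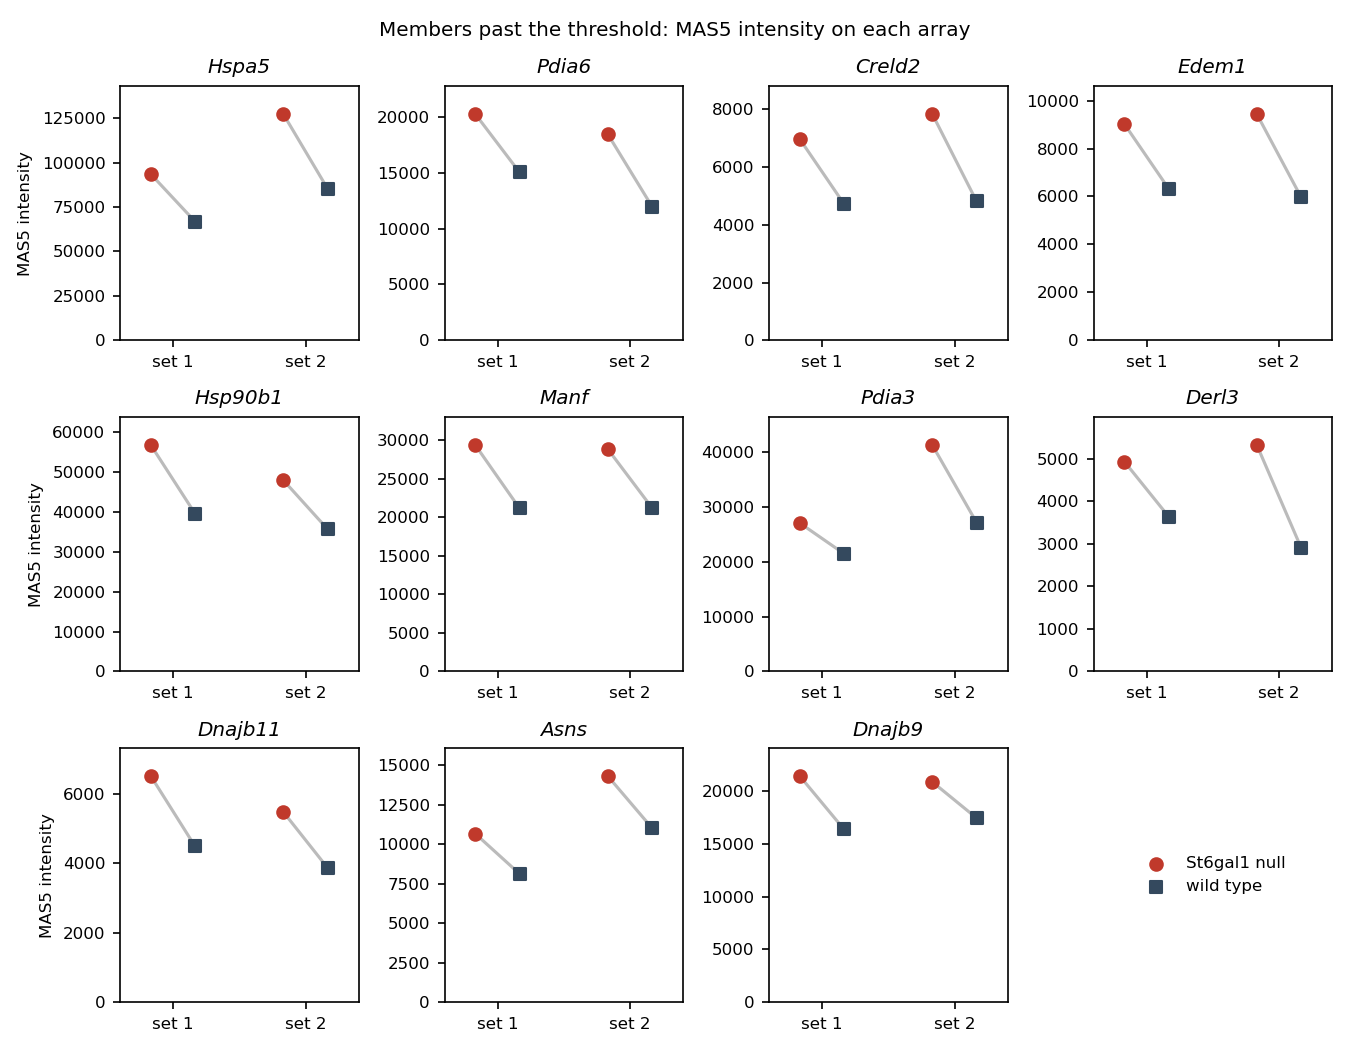
MAS5 intensity (linear scale) on each of the 4 arrays for the 11 genes past adjusted p 0.05. Red circles are null pools and dark squares wild-type pools, grey lines join the pools of 1 set, and each panel starts at 0. The null pool is the higher in both sets for all 11; for Pdia3 and Asns the null pool of set 1 lies below the wild-type pool of set 2.

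Among the protein disulfide isomerases, Pdia6 and Pdia3 rose and the others did not pass. Pdia6 (P5) read 20210 and 18410 in null against 15012 and 11957 in wild type, a 1.44-fold rise (log2 0.52 ± 0.09, adjusted p = 0.00196). Pdia3 (ERp57), which works on glycoproteins together with calnexin and calreticulin, read 27066 and 41279 in null against 21474 and 27165 in wild type. Its ratio was 1.26-fold in set 1 and 1.52-fold in set 2 (log2 0.47 ± 0.09, adjusted p = 0.00474), and the genotypes overlapped, the signal being higher in set 2. With 1 array left out and no set term, its log2 ratio was 0.16 without the null array and 0.64 without the wild-type array of set 2, and 0.77 without the null array and 0.30 without the wild-type array of set 1. A much dimmer probe set of Pdia3 read 675 and 568 in null against 694 and 610 in wild type. That probe set, close to the unspecific level, did not rise (log2 -0.07 ± 0.35, limma adjusted p = 0.947). P4hb, the classical disulfide isomerase, read 73639 and 105413 in null against 66217 and 100765 in wild type (1.08-fold, 95% interval 0.946 to 1.23, adjusted p = 0.542). Pdia4 (ERp72) went opposite ways in the sets. In set 1 the null pool read 2227 against 3514 for wild type, and in set 2 the null pool read 12627 against 9502 (log2 -0.12 ± 0.18, adjusted p = 0.773).

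The lectin chaperones that bind monoglucosylated N-glycans, calreticulin and calnexin, did not pass. Calr read 86493 and 112385 in null against 69352 and 94968 in wild type (1.21-fold, 95% interval 1.07 to 1.39, adjusted p = 0.0740). Its other 2 probe sets had log2 ratios of 0.29 and 0.27, and after quantile normalization the brightest passed (log2 0.26, limma adjusted p = 0.0216). Canx read 24458 and 32289 in null tumors, against 23413 and 25183 in wild-type tumors (1.16-fold, adjusted p = 0.204). On the brightest probe set of both genes the null pool read above the wild-type pool of the same set. The dimmer probe sets of Canx went opposite ways in the sets. Their log2 ratios were -0.04 in set 1 and 0.21 in set 2 for one, and -0.40 and 0.32 for the other.

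Of the J-domain partners of Hspa5, Dnajb11 and Dnajb9 rose. Dnajb11 (ERdj3) read 6510 and 5478 in null against 4490 and 3872 in wild type (1.43-fold, log2 0.51 ± 0.11, adjusted p = 0.0120). Dnajb9 (ERdj4), known to restrain Ern1, read 21357 and 20818 in null against 16336 and 17408 in wild type. Its 1.25-fold rise (log2 0.32 ± 0.09, adjusted p = 0.0355) was the smallest among the called members, and without the filter on dim probe sets its limma adjusted p was 0.0620. Dnajc3 (p58IPK), an inhibitor of Eif2ak3, read 12084 and 8564 in null against 9610 and 7450 in wild type (1.20-fold, adjusted p = 0.121). The other tested probe sets of Dnajc3 had lower log2 ratios, from -0.44 to 0.05, and none passed. Sdf2l1, which cycles with Dnajb11, read 2841 and 964 in null against 2685 and 794 in wild type (1.13-fold, adjusted p = 0.704). Its signal was 0.327-fold in set 2 relative to set 1.

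Hyou1 (GRP170), a nucleotide exchange factor of Hspa5, gave unlike values on its probe sets. The brightest read 4962 and 8050 in null against 4632 and 6925 in wild type (1.11-fold, adjusted p = 0.459). A dimmer one read 1893 and 1161 in null against 1294 and 184 in wild type, and limma called it higher (log2 1.47 ± 0.38, adjusted p = 0.0303). The wild-type array of set 2 lies under the unspecific level there, and the ratio was 1.46-fold in set 1 and 6.32-fold in set 2, so 1 array sets the size of that value.

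In ER-associated degradation, which extracts misfolded proteins to the proteasome, Derl3 and Edem1 rose. Derl3, a membrane protein of the retrotranslocation machinery, read 4931 and 5317 in null against 3641 and 2910 in wild type. That is 1.35-fold in set 1 and 1.83-fold in set 2 (log2 0.65 ± 0.14, adjusted p = 0.00859), the highest estimate among the brightest probe sets of the 32 genes. Edem1, which hands mannose-trimmed glycoproteins to degradation, read 9018 and 9428 in null against 6329 and 5974 in wild type (1.50-fold, log2 0.58 ± 0.10, adjusted p = 0.00228). The second probe set of Edem1 went the other way, with 3958 and 4701 in null against 5060 and 5099 in wild type (log2 -0.23 ± 0.12, adjusted p = 0.299). The rise of Edem1 therefore rests on 1 of its 2 probe sets.

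The core ubiquitin ligase complex of this pathway did not pass. Syvn1 (Hrd1), the ligase, read 4359 and 4513 in null against 4488 and 5351 in wild type (0.906-fold, 95% interval 0.759 to 1.08, adjusted p = 0.561). Sel1l, its adaptor, read 16761 and 18637 in null against 16530 and 17328 in wild type (1.04-fold, adjusted p = 0.751). One of the 4 other Sel1l probe sets had a log2 ratio of 0.55 ± 0.16 with adjusted p = 0.0584. The rest of them had lower log2 ratios, from 0.12 to 0.31, and none passed. Herpud1, a scaffold of the complex and a textbook stress-induced gene, read 12792 and 13164 in null against 11599 and 12426 in wild type (1.08-fold, 95% interval 0.947 to 1.23, adjusted p = 0.536). Derl1 read 19395 and 21747 in null against 16839 and 20994 in wild type (1.09-fold, adjusted p = 0.456), and a dimmer probe set of it had 0.41 ± 0.12 with adjusted p = 0.0503. Its remaining probe sets had log2 ratios of 0.05 and 0.13 and did not pass.

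None of the sensors, nor Xbp1, passed with limma. Xbp1 read 126603 and 143815 in null against 134488 and 137957 in wild type (0.991-fold, 95% interval 0.861 to 1.14, adjusted p = 0.960). Its other 3 tested probe sets had log2 ratios from -0.05 to 0.03. The sources used here do not say which probe sets tell spliced from unspliced Xbp1, so splicing of Xbp1 cannot be read from these values. Atf6 read 3211 and 3203 in null against 2364 and 2349 in wild type, with no overlap (1.35-fold, log2 0.44 ± 0.15, adjusted p = 0.0979). Ern1 read 3540 and 4190 in null against 2996 and 3857 in wild type (1.13-fold, adjusted p = 0.498). Eif2ak3 read 4561 and 4037 in null against 4695 and 3363 in wild type (1.08-fold, adjusted p = 0.701).

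In the Atf4/Ddit3 arm, Asns alone passed. Asns, which makes asparagine and is a known Atf4 target, read 10661 and 14302 in null against 8126 and 11023 in wild type. It rose 1.31-fold in set 1 and 1.30-fold in set 2 (log2 0.38 ± 0.09, adjusted p = 0.0189), and its second probe set had the same log2 ratio of 0.38 (adjusted p = 0.0203). Left out singly with no set term, the null arrays of sets 1 and 2 gave log2 ratios of 0.59 and 0.17 for Asns, and the wild-type arrays 0.16 and 0.60. Atf4 itself read 16549 and 13322 in null against 14973 and 14879 in wild type, higher in null in set 1 and lower in set 2 (0.995-fold, 95% interval 0.864 to 1.15, adjusted p = 0.979). Ddit3, the transcription factor CHOP that promotes cell death under lasting stress, read 2341 and 2903 in null against 2555 and 2838 in wild type (0.969-fold, 95% interval 0.772 to 1.22, adjusted p = 0.912). Trib3, a pseudokinase, read 2184 and 2889 in null against 2600 and 2785 in wild type (adjusted p = 0.795). Chac1, which degrades glutathione, read 523 and 727 in null against 670 and 712 in wild type, close to the unspecific level of 565. Ppp1r15a (GADD34), which directs the phosphatase that restores translation, was lower in both sets. It read 1499 and 1618 in null tumors against 1948 and 2261 in wild-type tumors (log2 -0.42 ± 0.19, unadjusted p = 0.0411, limma adjusted p = 0.216), and did not pass.

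Sec61b, a subunit of the translocon, read 45499 and 58263 in null against 35594 and 50550 in wild type (1.21-fold, adjusted p = 0.0659). It did not pass, but with the filter at the 75th percentile (11260 probe sets tested) its limma adjusted p was 0.0458. The cause of that shift was not tested.

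**Figure D4:**
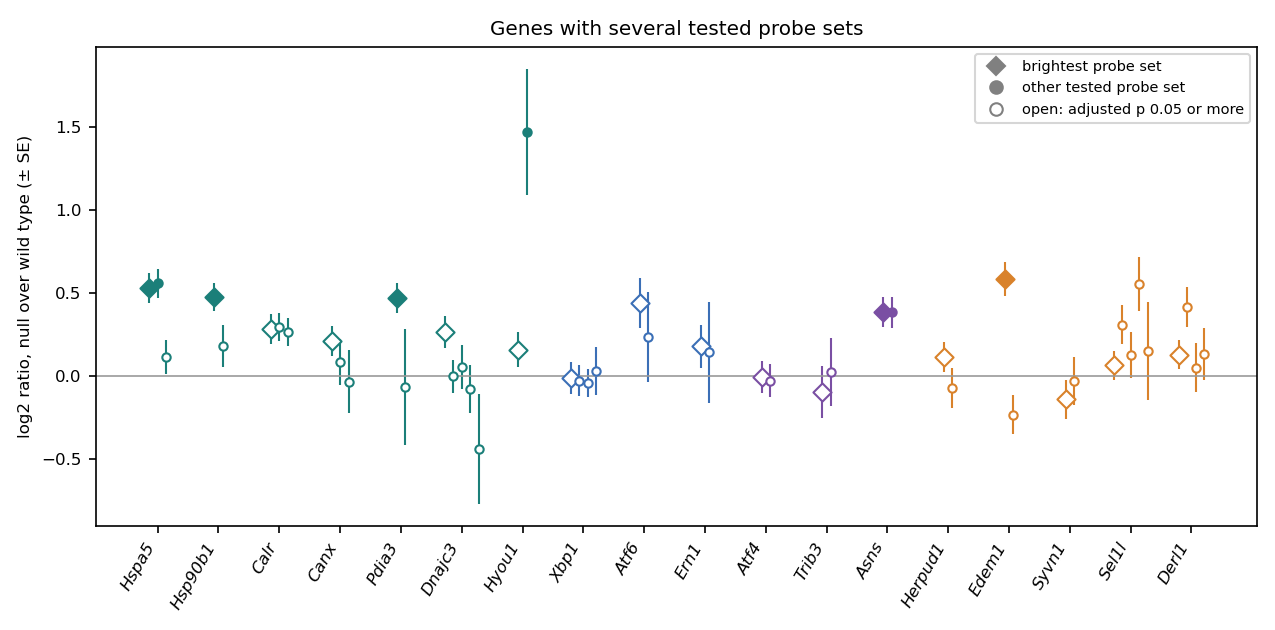
Log2 ratio of intensity, null over wild type, with its standard error, for every tested probe set of the 18 genes that have several. Diamonds are the brightest probe set and circles the others, filled where adjusted p is under 0.05. The probe sets of Calr, Xbp1, Atf4 and Asns lie close together, while those of genes such as Edem1, Hyou1, Hsp90b1 and Pdia3 lie apart.

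Probe sets of one gene could be compared for 18 genes. Of the 14 member probe sets called higher, 9 carry no suffix and 5 carry a suffix (_a, _s or _x) that marks probes shared by several transcripts or prone to cross-hybridize. Of all probe sets tested, 4.05% were called higher and 3.25% lower. Hspa5 had 2 called probe sets, at 0.53 and 0.56, and a dimmer one at 0.11 ± 0.10 that did not pass. For Hsp90b1 the second probe set read 24246 and 10105 in null against 16854 and 11321 in wild type, higher in null in set 1 only (log2 0.18 ± 0.13, adjusted p = 0.473).

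The sets were also compared gene by gene. The direction was higher in null in both sets for 23 of the 32 genes, lower in both for 2, Ppp1r15a and Syvn1, and opposite for 7. Among all genes tested, 31.8% were higher in both. At least 1.25-fold higher in both sets, a rule chosen after seeing the data and with no test, were 11 of the 32, including 7 chaperones. By that rule 7.63% of all genes were higher and 5.77% lower, and the only member lower was Ppp1r15a. The chaperone median was 0.33 in set 1 and 0.41 in set 2. The degradation genes had medians of 0.17 and 0.09, and the Atf4/Ddit3 arm -0.19 and 0.03.

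**Figure D5:**
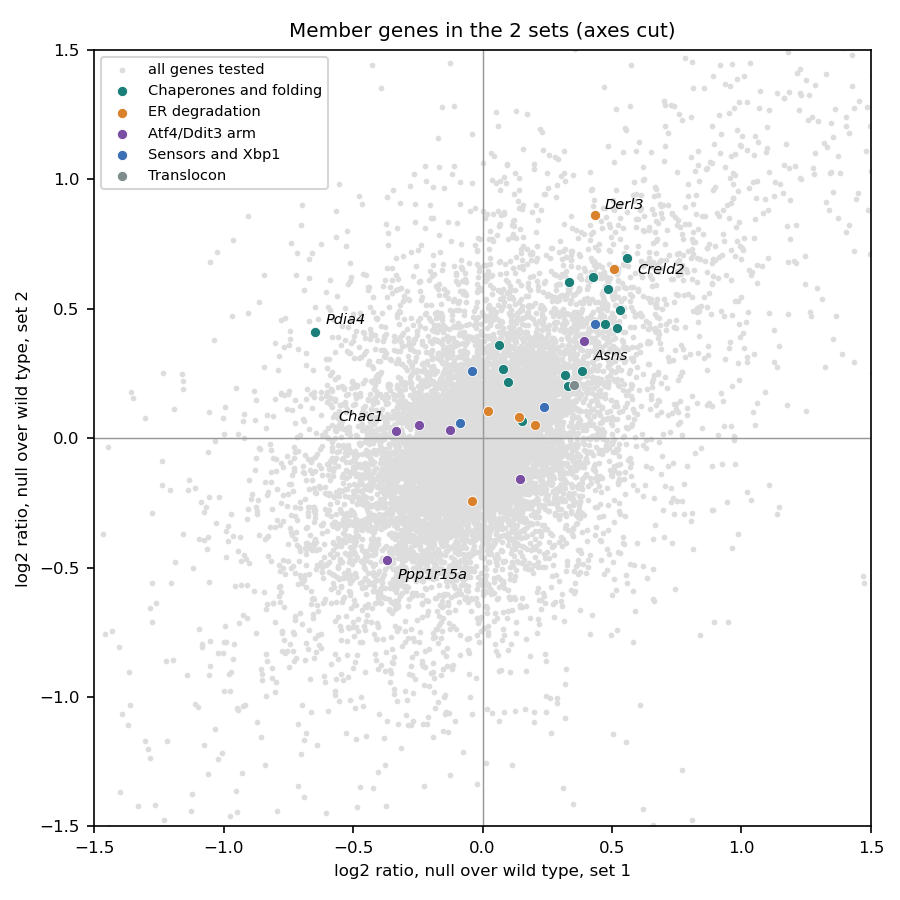
Log2 ratio of intensity, null over wild type, in set 1 (x axis) and set 2 (y axis), 1 point per gene, with the 11514 genes tested in grey (those beyond the axis limits are not drawn) and the 32 members coloured by role. Most chaperones lie in the upper right quadrant, Pdia4 lies in the upper left, and the Atf4/Ddit3 genes other than Asns lie around or below 0.

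Signals of members also differed between the sets, estimated over both genotypes together. Limma called 10 of the 32 genes between set 2 and set 1, 8 higher and 2 lower in set 2, beside 23.1% of all genes called either way. Of all 11514 genes tested, 1680 were higher and 985 lower in set 2. The largest of these rises was that of Pdia4, 3.87-fold higher in set 2 (adjusted p = 5.03e-06), and Calr, P4hb and Hspa5 were 1.33-fold, 1.48-fold and 1.32-fold higher. For Hspa5 only the brightest probe set was called between the sets. Its other probe sets read 0.99-fold and 1.21-fold in set 2 relative to set 1 (limma adjusted p = 0.94 and 0.0735). For Pdia4 the rise was unequal by genotype, from 2227 to 12627 in null and from 3514 to 9502 in wild type. Manf, Edem1 and Dnajb9, by contrast, read 0.993-fold, 0.994-fold and 1.02-fold in set 2 relative to set 1.

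Among 37 other ER folding factors 3 rose and 1 fell. Over all genes tested 5.18% were called higher and 3.59% lower, the shares to set beside the counts of these other lists. Fkbp11, a prolyl isomerase of secretory cells, rose 1.40-fold, Ero1a, the oxidase that recharges disulfide isomerases, 1.32-fold, and Serp1, which stabilizes membrane proteins at the translocon, 1.31-fold. Rcn2, a calcium-binding reticulocalbin, fell by 0.47 on the log2 scale. Of 22 other degradation genes limma called 0 (2 higher and 0 lower at an unadjusted p under 0.05), with a median of -0.04. Of 29 genes of translocation, signal cleavage and N-glycan transfer 1 rose, Sec11c of the signal peptidase, 1.50-fold (24066 and 29136 in null against 16838 and 18429 in wild type), while 12 were higher and 1 was lower at an unadjusted p under 0.05. At that unadjusted p, 1362 of all 11514 genes tested were higher and 1309 lower.

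Other targets of Atf4 were mixed in direction. Of 30 tested, 4 rose and 1 fell, with a median of 0.04, beside 5.18% of all genes called higher and 3.59% lower. Atf3, a stress-induced repressor, read 2548 and 4194 in null against 1719 and 2498 in wild type (1.57-fold, adjusted p = 0.0194). The tRNA synthetase genes Aars and Nars rose 1.43-fold and 1.35-fold, and Slc7a1, a transporter of cationic amino acids, 1.44-fold. Slc3a2, the heavy chain of amino acid transporters, fell by 0.49 on the log2 scale. Among 21 other regulators Creb3l4, an ER-anchored transcription factor, rose 2.01-fold (1300 and 1547 in null against 751 and 624 in wild type), and Nfe2l1 fell by 0.36.

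Genes of the whole table with an exact ER stress response element were set beside the members. Of the 9 members that hold the first form 5 rose, with a median log2 ratio of 0.47, and of the 19 members with a window and no such match 5 rose, with a median of 0.11. These groups differ in class: most of the 9 are chaperones, and all genes of the Atf4/Ddit3 arm are among the 19. Of the chaperones with the match Hspa5, Hsp90b1, Creld2 and Pdia6 rose, and Calr, Canx and Dnajc3 did not pass. Of those without it Pdia3, Dnajb9 and Dnajb11 rose, and Pdia4, P4hb and Sdf2l1 did not pass. The part of class in the medians was not tested. Outside the members, 11 further genes with the element were named on the array, of which 6 could be tested and 0 were called (0 higher and 1 lower at an unadjusted p under 0.05), with a median of 0.06. One of them, Alg12, a mannosyltransferase of N-glycan assembly, shares its element with Creld2: both windows hold the same bases, chr15:88819520-88819538. Alg12 read 823 and 632 in null against 756 and 596 in wild type (log2 0.10 ± 0.33, adjusted p = 0.913), close to the unspecific level, while Creld2 rose 1.54-fold.

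Markers of other cells moved with genotype too, and in bulk tumors more cells of a type and more RNA per cell cannot be told apart. All 10 fibroblast markers rose, their summed intensity being 340687 and 389326 in null tumors against 161401 and 165920 in wild-type tumors. Of 6 tested adipocyte markers 4 rose (sum 63040 and 55228 in null against 26366 and 23178 in wild type, with Lep at or below the unspecific level on all arrays), and of 7 markers of dividing cells 4 rose (49750 and 56902 against 33071 and 34036). Muscle markers rose for 3 of 8, macrophage markers for 3 of 8 and endothelial markers for 1 of 5, and none of these fell. Epithelial markers, the check of the labelled tissue, were bright on every array and summed to 480191 and 490229 in null against 455584 and 417980 in wild type, with 2 of 8, Krt19 and Cldn4, higher. Milk genes gave 1 higher and 2 lower of 5 tested, with Csn2 and Glycam1 at or below the unspecific level. The part of these cells in the rise of the chaperones was not tested.

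Of 5 tested markers of plasma cells and B cells, Ighm rose, Jchain and Sdc1 fell, and 2 did not pass. Jchain, which joins secreted immunoglobulin, read 869 and 1190 in null tumors against 1487 and 2236 in wild-type tumors. The 10 markers summed to 23856 and 28849 in null tumors against 28007 and 32077 in wild-type tumors, and Cd79a, Irf4 and Tnfrsf17 read at or below the unspecific level on all arrays.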

How the data were processed

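Probe set intensities of 4 arrays were read from the deposited table. Per the submitters' processing notes the authors made them with MAS5 (its version is not given), and the mean of the deposited intensities, with 2% trimmed off either end, is equal on all arrays. The values were used without further normalization. Of 45101 probe sets 64 controls were left out. The annotation named 1 gene for 34945 of the rest, several for 932 and none for 9160, and all 32 member symbols were in the RefSeq gene table (GRCm38.p6). The files state no genome build, and RefSeq coordinates are used only for promoter sequence. Columns of unmapped samples numbered 0.

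Probe sets with a mean intensity at or above the median were tested (22519), on log2(intensity + 44), 44 being the 10th percentile over the table. A ratio on this scale understates changes of dim genes. The fit was limma 3.58.1 in R 4.3.3 (lmFit and trended eBayes), with terms for genotype and set, leaving 1 residual and 13.0 prior degrees of freedom. The sets pair the pools per the labels' design text. Within sets the arrays' deviations from their group means had a correlation of 0.605, equal for both sets by construction. The smallest two-sided p of an exact permutation test on 4 arrays, with labels exchanged freely and not within sets, is 0.333. Exchange within sets allows fewer arrangements, so its smallest p is larger. The number of arrays limits the precision. The fit was tested on simulated data whose noise was drawn from the fitted intensity trend, so that trial cannot check the trend or the set term. Members, lists, tests and alternatives were chosen with earlier results of these data known. Every member is named. Genes of other pathway lists are named where they passed, up to 6 per list. Other probe sets, near misses, genes with a shared promoter element and marker genes were named after their values were seen. Of 154 symbols in the pathway lists 10 had no probe set under that symbol alone. Other normalizations, filters, pseudocounts and fits, and single arrays left out, were tried, with their effect given at the end. Protein sequences were not used here.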

Additional observations from a re-analysis of the deposited data

Results flagged for a closer look

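Each set holds 1 pool per genotype. Compared between sets, 4 of the 63 tested member probe sets were at least 1.25-fold higher in null in one set and at least 1.25-fold lower in the other, and the difference between the sets was not tested. For Pdia4, the log2 ratio of null over wild type in set 2 minus that in set 1 was 1.06. The difference was 0.72 for the dimmest probe set of Canx and 0.73 for that of Xbp1, and it was -0.78 for the dimmer probe set of Trib3. The brightest probe sets of Canx and Trib3 differed less between sets, with log2 ratios of 0.06 and 0.36 for Canx and -0.25 and 0.05 for Trib3.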

How the results depend on the processing

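The 14 member probe sets called higher numbered 12 to 18 with quantile or cyclic loess normalization, other filters (none, or the 75th percentile) and other pseudocounts (16 or 100), and the 11 genes 10 to 12. Under these settings 0 members were called lower and the log2 ratios kept their sign wherever the gene was tested, which under the 75th percentile filter leaves out Sdf2l1, Trib3, Chac1 and Ppp1r15a. With no replicate block (no set term) the counts were 0 member probe sets, 0 genes and 0 of the whole table, and with no intensity trend 0, 0 and 0. With the set term no residual degree of freedom is left after an array is left out, so single arrays were left out without it. Then 4 to 27 probe sets of the whole table were called, with 0 member probe sets and 0 member genes in each case. Without 1 array, Pdia3 ranged over 0.16 to 0.77, Asns 0.16 to 0.60 and Hspa5 0.31 to 0.75 on the log2 scale, and the other 8 called genes kept within 1.5 times their values. Some uncalled members changed sign, with ranges of log2 ratios as follows. They were Pdia4 -1.36 to 1.12, P4hb -0.19 to 0.41, Hyou1 -0.19 to 0.50, Sdf2l1 -0.68 to 1.02, Xbp1 -0.11 to 0.078, Ern1 -0.0020 to 0.36, Eif2ak3 -0.13 to 0.35, Atf4 -0.16 to 0.15, Ddit3 -0.20 to 0.11, Trib3 -0.30 to 0.10, Chac1 -0.37 to 0.069, Sel1l -0.014 to 0.14 and Derl1 -0.032 to 0.29. The chaperone median was 0.39 with the 75th percentile filter, which drops the dimmer genes, and 0.41 in set 2 alone. The degradation median was 0.18 with the mean over the tested probe sets of each gene. The cause of the other shifts was not tested. The number of arrays, and signals near the unspecific level for Chac1, limit these values.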
